A study of Homo sapiens with 12 samples.

Results

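The genes described here are 9 genes of prostaglandin synthesis and monoglyceride breakdown, PLA2G4A, MGLL, PTGS1, PTGS2, PTGES, PTGES2, PTGES3, PTGIS and HPGD, taken by their symbols from the 58302 genes of the deposited tables. RNA was sequenced from 2 human cell lines, each incubated with the TEAD inhibitor GNE-7883 or with its vehicle DMSO. The resistant line, NCI-H226_CL3, had been derived from NCI-H226 mesothelioma cells by growth in a TEAD inhibitor raised stepwise over 0.25 to 3 µM, and the sensitive line is NCI-H226 itself. The labels call the derived line resistant to GNE-7883 but do not name the inhibitor used to select it. The labels describe the resistant cells as NF2 null NCI-H226, so loss of NF2, an upstream gene of the Hippo pathway, is shared by both lines. There were 4 groups of 3 libraries: resistant cells in GNE-7883, resistant cells in DMSO, sensitive cells in GNE-7883 and sensitive cells in DMSO. Neither the dose nor the length of that incubation is stated in the labels. A single resistant line was profiled, so that resistance cannot be told apart from other differences between the 2 cultures, and whether replicate libraries stem from separate cultures is not stated. The p-values therefore reflect the variation among these libraries, possibly a technical one.

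Prostaglandins are short-lived lipid signals made from arachidonic acid. Cytosolic phospholipase A2 (PLA2G4A) cuts that fatty acid out of membrane phospholipids, and monoglyceride lipase (MGLL) frees it from the endocannabinoid 2-arachidonoylglycerol. The cyclooxygenases PTGS1, usually constitutive, and PTGS2, usually inducible, turn arachidonic acid into the unstable intermediate prostaglandin H2, from which the synthases PTGES, PTGES2 and PTGES3 make prostaglandin E2 and PTGIS makes prostacyclin. HPGD inactivates prostaglandins. PTGES3 is also known as p23, a co-chaperone of HSP90.

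The libraries held 31878934 to 46962645 counts each. Levels are read counts relative to library size (CPM) scaled by TMM between libraries, and a level compared between genes is in RPKM, which also divides by gene length. All 7 mesothelial markers checked, MSLN, CALB2 and WT1 among them, were at 1 CPM or more in each group, and their summed levels were 3795 to 4162 CPM in resistant cells in GNE-7883, 2874 to 3308 CPM in resistant cells in DMSO, 5814 to 6100 CPM in sensitive cells in GNE-7883 and 6071 to 7471 CPM in sensitive cells in DMSO. KRT7 gave the largest part of each sum. In resistant cells KRT7 averaged 2619 CPM in GNE-7883 and 2039 CPM in DMSO, and CALB2 averaged 448 and 278 CPM. In sensitive cells KRT7 averaged 2818 CPM in GNE-7883 and 4205 CPM in DMSO, and CALB2 averaged 1672 and 1125 CPM. The 7 lung epithelial markers summed to at most 4.18 CPM and the 5 blood cell markers to at most 0.184 CPM in any library, although the tissue label names lung epithelium. The 3 endothelial markers summed to at most 4.64 CPM. The 4 fibroblast markers summed to 469 to 540 CPM in resistant cells in GNE-7883, 351 to 445 CPM in resistant cells in DMSO, 423 to 487 CPM in sensitive cells in GNE-7883 and 647 to 716 CPM in sensitive cells in DMSO, nearly all of it from the collagen gene COL1A1. Another of the 4, PDGFRA, averaged 0.797 ± 0.153 CPM in resistant cells in GNE-7883, 0.566 ± 0.173 CPM in resistant cells in DMSO, 16.6 ± 0.689 CPM in sensitive cells in GNE-7883 and 1.91 ± 0.364 CPM in sensitive cells in DMSO (SD, n = 3). By mean level, PDGFRA and DCN were highest in the same group as PTGS1, PTGS2, PTGES, PTGIS and PLA2G4A. COL1A1 and LUM were highest in sensitive cells in DMSO instead. Of the mesothelial markers, MSLN, CALB2, UPK3B and PDPN were highest in sensitive cells in GNE-7883. WT1 and KRT7 were highest in sensitive cells in DMSO, and KRT5 in resistant cells in GNE-7883. The part of these markers in the results of the genes described here was not tested. Sensitive DMSO replicate 2 stood apart from its group. Set against its 2 partners, its counts gave a chi-square of 39.8 and 45.4 per degree of freedom, where the other pairs of replicates gave 3.32 to 11.3. A gene is said to have risen or fallen where edgeR's quasi-likelihood test, fitted over all 18035 genes that passed a filter on low counts, gave an adjusted p under 0.05 (Benjamini-Hochberg). The 9 genes were selected on results of these same libraries: MGLL and PTGES were chosen by the size of their fold changes, so their values are a description with no test. HPGD did not pass the filter, which leaves 6 genes with a test. Since the list was chosen with results of these data known, counts of these 6 beside the share of all genes are a description.

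In sensitive cells, GNE-7883 raised the cyclooxygenases, the prostacyclin synthase and the phospholipase, while PTGES2 and PTGES3 fell. Relative to DMSO the rise was 8.43-fold for PTGS2, 4.20-fold for PTGS1, 3.04-fold for PLA2G4A and 2.63-fold for PTGIS, and the fall was 1.48-fold for PTGES2 and 1.46-fold for PTGES3. All 6 genes with a test thus passed it, 4 upward and 2 downward, against 58.1% of all genes tested (29.8% rose and 28.4% fell). PTGES was 3.65-fold higher and MGLL 9.92-fold lower in GNE-7883. In resistant cells, PLA2G4A rose 2.45-fold, PTGS2 2.33-fold, PTGS1 2.10-fold and PTGIS 2.05-fold, so that 4 of 6 rose and 0 fell. The count of rises was 3 when resistant DMSO replicate 1, resistant GNE-7883 replicate 1 or resistant GNE-7883 replicate 2 was left out, each of which ended the call of PTGS2. The share of all genes called there was 9.22% (5.25% rose and 3.97% fell). The same test put 0 of the 6 lower at an unadjusted p under 0.05, and so did DESeq2 at an adjusted p under 0.05. PTGES was 2.56-fold higher and MGLL 1.57-fold lower in GNE-7883 in the resistant line. The background of the resistant comparison depended on single libraries: 3060 genes were called without sensitive DMSO replicate 2, and 861, 950, 984 and 854 without resistant DMSO replicate 1, resistant DMSO replicate 3, resistant GNE-7883 replicate 1 and resistant GNE-7883 replicate 3, against 1663 with all libraries.

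**Figure D1:**
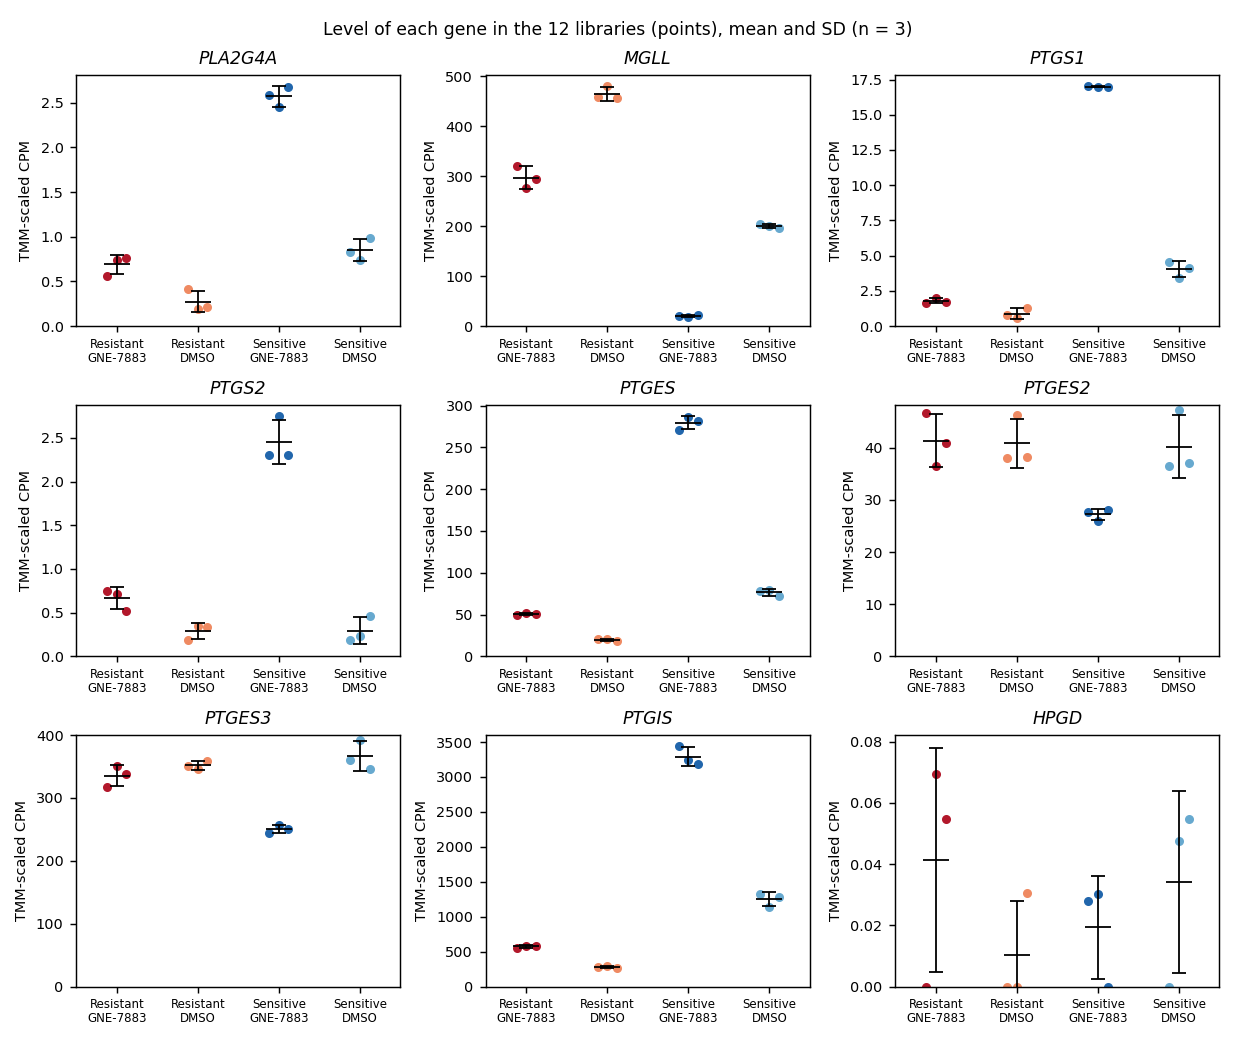
Level of each of the 9 genes in TMM-scaled CPM on linear axes from 0, with 1 point per library, bars for the mean and SD (n = 3), and the groups from left to right as resistant GNE-7883, resistant DMSO, sensitive GNE-7883 and sensitive DMSO. PTGES, PTGIS, PTGS1, PTGS2 and PLA2G4A are highest in the 3 sensitive libraries in GNE-7883, whereas MGLL is lowest there, at 18.3 to 21.8 CPM.

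The promoters of 4 genes that were higher together in GNE-7883 are printed because the group spans both cyclooxygenases, the phospholipase and the inducible prostaglandin E synthase. Each line gives, 5′ to 3′ on the gene's own strand, the 250 bases before the RefSeq start on GRCh38.p14, in lower case with matches to a motif in capitals. The windows are chr9:129753043-129753292 on the minus strand for PTGES, chr9:122370283-122370532 on the plus strand for the more upstream of the 2 RefSeq starts of PTGS1, chr1:186680424-186680673 on the minus strand for PTGS2 and chr1:186828699-186828948 on the plus strand for PLA2G4A.
PTGES: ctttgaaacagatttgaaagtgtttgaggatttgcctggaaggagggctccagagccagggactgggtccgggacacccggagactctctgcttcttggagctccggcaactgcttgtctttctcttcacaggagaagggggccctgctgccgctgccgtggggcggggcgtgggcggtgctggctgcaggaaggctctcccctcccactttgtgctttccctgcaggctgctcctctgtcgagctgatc
PTGS1: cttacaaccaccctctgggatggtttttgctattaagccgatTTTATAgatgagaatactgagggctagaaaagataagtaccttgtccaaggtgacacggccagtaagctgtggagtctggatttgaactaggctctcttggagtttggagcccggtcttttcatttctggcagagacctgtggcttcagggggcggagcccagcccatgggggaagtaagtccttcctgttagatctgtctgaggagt
PTGS2: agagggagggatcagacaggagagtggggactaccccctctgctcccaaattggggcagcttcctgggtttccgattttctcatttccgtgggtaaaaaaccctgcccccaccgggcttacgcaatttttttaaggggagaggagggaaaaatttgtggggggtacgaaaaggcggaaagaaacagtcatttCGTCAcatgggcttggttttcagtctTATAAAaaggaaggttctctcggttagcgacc
PLA2G4A: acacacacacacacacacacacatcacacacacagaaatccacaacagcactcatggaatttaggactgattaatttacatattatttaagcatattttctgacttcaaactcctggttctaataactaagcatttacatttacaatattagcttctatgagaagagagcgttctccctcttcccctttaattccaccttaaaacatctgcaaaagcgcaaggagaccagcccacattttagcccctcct
The PTGS2 window holds the TATA box letters TATAAA starting 32 bases before the start, and the core of the cyclic AMP response element, TGACG, read on the other strand as CGTCA, starting 58 bases before it. The PTGS1 window holds TTTATA, the TATA box letters on the other strand, starting 208 bases before the start.

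RefSeq promoters were found for 7 of the 9 genes, MGLL and PTGIS being the exceptions, in 11 windows because some genes have several starts. The TEAD core CATTCC, searched on both strands, was in 0 of these 11 windows, while 11.9% of all 35116 RefSeq promoter windows of that length hold it. In so few windows a 0 cannot be told apart from that share. Bases further from the starts were not searched, so whether these genes have TEAD sites elsewhere is not known. The full cyclic AMP response element TGACGTCA was in 0 of 11 (1.65% of all), and its core TGACG, which lies within the full element, in 3 of 11 (21.2% of all), namely PTGS2, PTGES3 and 1 start of HPGD. TATAAA was in 2 of 11 (10.7% of all) and the AP-1 motif TGANTCA in 0 of 11 (6.57% of all). The core element, the TATA box and the AP-1 motif were added to the search after the windows had been seen.

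PLA2G4A, the phospholipase that releases arachidonic acid (ENSG00000116711, chr1:186828953-186988981 on GRCh38), was a gene of low level. Sensitive cells had 2.59, 2.45 and 2.68 CPM in GNE-7883, against 0.827, 0.737 and 0.985 CPM in DMSO. Resistant cells had 0.564, 0.741 and 0.764 CPM in GNE-7883, against 0.413, 0.195 and 0.215 CPM in DMSO. In both lines each GNE-7883 library lay above each DMSO library, and the resistant libraries in GNE-7883 overlapped the sensitive libraries in DMSO. The log2 fold change was 1.60 ± 0.19 in sensitive cells (standard error, adjusted p = 2.46e-06) and 1.29 ± 0.28 in resistant cells (adjusted p = 0.00822). PLA2G4A was also lower in the resistant line than in the sensitive line, by -1.60 ± 0.27 in DMSO (adjusted p = 0.000142) and -1.91 ± 0.19 in GNE-7883 (adjusted p = 3.51e-07). The 2 responses to GNE-7883 were not shown to differ (-0.31, 95% interval -1.14 to 0.52, adjusted p = 0.54), an interval that holds both a much smaller and a larger response in the resistant line. Fitted by limma on log2(RPKM + 0.1), the rise in resistant cells was 0.82 and the line difference in DMSO was -0.99, since the added constant shrinks the fold changes of genes of low level.

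MGLL, the lipase that splits monoglycerides (ENSG00000074416, chr3:127689062-128052190), had the widest span of group means among the 8 genes described here that passed the filter. It was 4.53 on the log2 scale of mean CPM. Sensitive cells had 20.4, 18.3 and 21.8 CPM in GNE-7883, against 204, 200 and 196 CPM in DMSO. Resistant cells had 321, 276 and 294 CPM in GNE-7883, against 458, 481 and 456 CPM in DMSO. Every resistant library, with or without the inhibitor, lay above every sensitive library. The log2 fold change in GNE-7883 was -3.31 in sensitive cells and -0.65 in resistant cells. Resistant cells were 2.32-fold higher than sensitive cells in DMSO and 14.7-fold higher in GNE-7883. By size of decrease MGLL ranked 8 of 4040 called genes of at least 5 CPM in sensitive cells, the rank that chose it.

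PTGS1, the cyclooxygenase usually present without a stimulus (ENSG00000095303, chr9:122370530-122395703), had 17.0 CPM in each of the 3 libraries of sensitive cells in GNE-7883, against 4.53, 3.45 and 4.16 CPM in DMSO. In resistant cells it had 1.67, 1.99 and 1.75 CPM in GNE-7883, against 0.825, 0.563 and 1.29 CPM in DMSO. The groups did not overlap, and all resistant libraries lay below all sensitive ones. The log2 fold change in GNE-7883 was 2.07 ± 0.14 in sensitive cells (adjusted p = 3.03e-09) and 1.07 ± 0.21 in resistant cells (adjusted p = 0.0048). Against the sensitive line, PTGS1 fell by 2.23 on the log2 scale in the resistant line in DMSO (adjusted p = 8.94e-08). In GNE-7883 it fell by 3.23 (adjusted p = 2.80e-11). Resistant cells in DMSO had only 36, 26 and 42 counts of PTGS1. Over the alternatives, its rise in resistant cells ran from 0.73 to 1.39 and its line difference in DMSO from -2.56 to -1.62. The response was smaller in the resistant line by -1.0 ± 0.26 (adjusted p = 0.00737), a call that was lost without resistant DMSO replicate 3 (-0.65, adjusted p = 0.0617, range over 18 alternatives 0.000297 to 0.0617).

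PTGS2, the inducible cyclooxygenase (ENSG00000073756, chr1:186671791-186680427), was counted by few reads. Its counts were 83, 91 and 87 in sensitive cells in GNE-7883, against 8, 10 and 17 in DMSO, which is 2.31, 2.75 and 2.31 CPM against 0.184, 0.238 and 0.465 CPM. In resistant cells it had 36, 31 and 19 counts in GNE-7883, against 8, 16 and 11 in DMSO, or 0.752, 0.718 and 0.519 CPM against 0.183, 0.346 and 0.338 CPM. Both lines began from overlapping levels in DMSO, and the sensitive libraries in GNE-7883 were above all others. The log2 fold change was 3.08 ± 0.27 in sensitive cells (adjusted p = 7.45e-08) and 1.22 ± 0.32 in resistant cells (adjusted p = 0.0248), with a difference in response of -1.86 ± 0.45, resistant minus sensitive (adjusted p = 0.00444). The call in resistant cells was lost without resistant DMSO replicate 1 (adjusted p = 0.134), without resistant GNE-7883 replicate 1 (0.0986) and without resistant GNE-7883 replicate 2 (0.0723), in a range over 18 alternatives of 0.00241 to 0.134. Resistant and sensitive cells in DMSO were not shown to differ (-0.01, 95% interval -0.89 to 0.87, adjusted p = 0.99), and in GNE-7883 PTGS2 fell by 1.86 in the resistant line against the sensitive one (adjusted p = 2.76e-06). With limma on log2(RPKM + 0.1) its rises were 1.96 in sensitive cells and 0.60 in resistant cells.

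Summed over both cyclooxygenases, the level was 0.471 ± 0.047 RPKM in resistant cells in GNE-7883 and 0.224 ± 0.070 RPKM in resistant cells in DMSO (SD, n = 3). It was 3.38 ± 0.053 RPKM in sensitive cells in GNE-7883 and 0.744 ± 0.093 RPKM in sensitive cells in DMSO. PTGS1 was the more abundant of the pair per length in each group: its RPKM was 5.43 ± 0.53 times that of PTGS2 in sensitive cells in GNE-7883 and 12.5 ± 6.2 times in DMSO. In resistant cells this ratio was 2.17 ± 0.45 in GNE-7883 and 2.58 ± 1.17 in DMSO, with overlapping libraries.

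**Figure D2:**
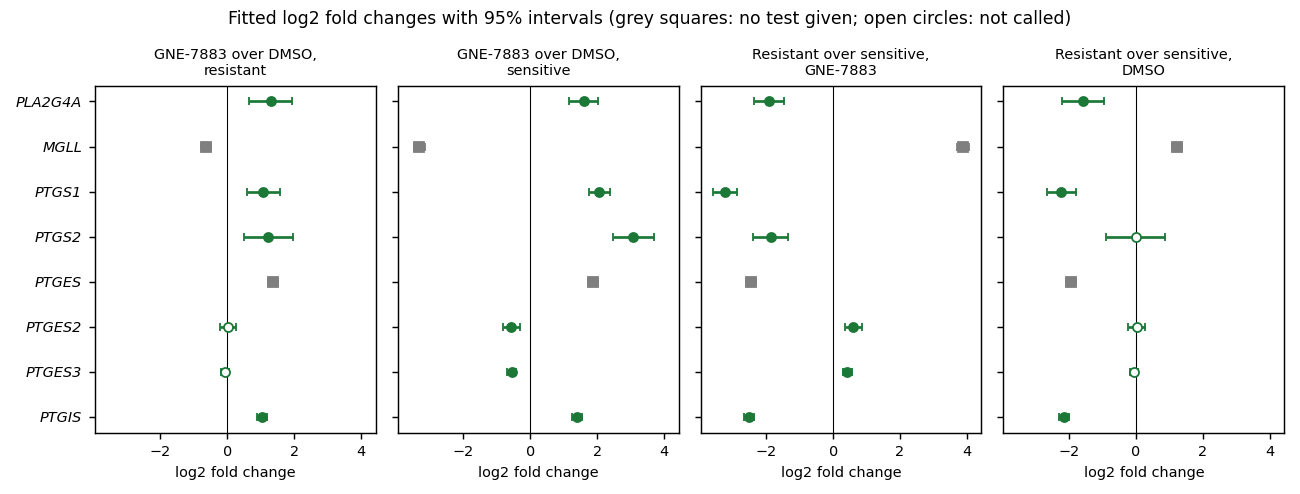
Fitted log2 fold changes of the 8 genes that passed the filter, in GNE-7883 over DMSO in each line and in resistant over sensitive cells in each treatment, with bars for 95% intervals. Filled circles passed an adjusted p of 0.05, open circles did not, and grey squares are MGLL and PTGES, given without a test. The bars of MGLL and PTGES do not allow for their choice by size. In sensitive cells GNE-7883 moved PTGS2 furthest upward (3.08), and MGLL lay furthest down (-3.31), while in resistant cells all values lie between -0.65 and 1.36.

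PTGES, the inducible microsomal synthase that makes prostaglandin E2 (ENSG00000148344, chr9:129738331-129753047), had 271, 286 and 282 CPM in sensitive cells in GNE-7883, against 78.3, 79.9 and 71.7 CPM in DMSO. In resistant cells it had 49.7, 51.3 and 50.9 CPM in GNE-7883, against 20.2, 21.0 and 17.9 CPM in DMSO. No group overlapped another, and resistant cells in GNE-7883 were below sensitive cells in DMSO. The log2 fold change in GNE-7883 was 1.87 in sensitive cells and 1.36 in resistant cells. By size of increase PTGES ranked 7 of 756 called genes of at least 5 CPM in resistant cells, the rank that chose it. Between the lines, the log2 fold change of PTGES in resistant over sensitive cells was -1.96 in DMSO and -2.47 in GNE-7883.

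PTGIS, the prostacyclin synthase (ENSG00000124212, chr20:49503874-49568146), was the most abundant of the 9 genes per length in sensitive cells. It had 3443, 3242 and 3179 CPM in sensitive cells in GNE-7883, against 1327, 1135 and 1286 CPM in DMSO. Resistant cells had 556, 587 and 583 CPM in GNE-7883, against 283, 291 and 270 CPM in DMSO. The 4 groups did not overlap, and the resistant line in GNE-7883 was below the sensitive line in DMSO, as for PTGES. The log2 fold change was 1.40 ± 0.060 in sensitive cells (adjusted p = 2.57e-11) and 1.03 ± 0.060 in resistant cells (adjusted p = 5.90e-08), a difference in response of -0.36 ± 0.084 (adjusted p = 0.00303). PTGIS fell by 2.15 in the resistant line against the sensitive line in DMSO (adjusted p = 1.98e-13) and by 2.52 in GNE-7883 (adjusted p = 2.16e-14).

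PTGES2, a membrane-associated prostaglandin E synthase (ENSG00000148334, chr9:128120693-128128462), had 27.6, 26.0 and 28.0 CPM in sensitive cells in GNE-7883, against 36.4, 47.2 and 37.0 CPM in DMSO. Resistant cells had 46.6, 36.4 and 40.9 CPM in GNE-7883, against 38.0, 46.3 and 38.3 CPM in DMSO. The sensitive libraries in GNE-7883 were below all 9 others, which overlapped each other. PTGES2 fell by 0.56 ± 0.11 in sensitive cells (adjusted p = 0.000408) and did not pass the test in resistant cells (0.02, 95% interval -0.23 to 0.27, adjusted p = 0.959). The difference in response was 0.58 ± 0.15 (adjusted p = 0.00823).

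PTGES3, the p23 co-chaperone and cytosolic prostaglandin E synthase (ENSG00000110958, chr12:56663341-56688408), was likewise lowest in sensitive cells in GNE-7883. Sensitive cells had 244, 257 and 250 CPM in GNE-7883, against 361, 393 and 346 CPM in DMSO. Resistant cells had 317, 351 and 338 CPM in GNE-7883, against 350, 345 and 359 CPM in DMSO. It fell by 0.55 ± 0.057 in sensitive cells (adjusted p = 5.62e-07), while in resistant cells the change was -0.07 (95% interval -0.20 to 0.06, adjusted p = 0.545), and the responses differed by 0.48 ± 0.080 (adjusted p = 0.000223). The annotation holds 5 pseudogenes named after PTGES3, with 20322 counts over the 12 libraries against 157252 for the gene, so its level is uncertain where reads could be split among these copies.

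HPGD, the enzyme that inactivates prostaglandins (ENSG00000164120, chr4:174490177-174523154), had 12 counts over all 12 libraries and at most 3 in any of them. It had 5 counts in resistant cells in GNE-7883, 1 in resistant cells in DMSO, 2 in sensitive cells in GNE-7883 and 4 in sensitive cells in DMSO. At this depth no difference was detectable.

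Between the lines, 3 of the 6 genes with a test fell in resistant cells in DMSO and 0 rose, where 48.7% of all genes were called (24.2% rose and 24.4% fell). The 3 were PTGS1, PTGIS and PLA2G4A. The count of rises was also 0 at an unadjusted p under 0.05 and by DESeq2. PTGES2 (0.02, 95% interval -0.23 to 0.27, adjusted p = 0.878) and PTGES3 (-0.06, interval -0.19 to 0.07, adjusted p = 0.402) did not pass. In GNE-7883 all 6 passed, 2 upward and 4 downward, where 61.9% of all genes were called (30.7% rose and 31.1% fell). There PTGES2 rose by 0.60 ± 0.11 (adjusted p = 0.000183) and PTGES3 by 0.42 ± 0.057 (adjusted p = 8.21e-06). The comparisons share libraries and are not independent of each other.

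The difference in response to GNE-7883 between the lines, resistant minus sensitive, passed the test for 5 of the 6 genes, where 35.7% of all genes were called (19% upward and 16.7% downward). It was negative for PTGS1, PTGS2 and PTGIS, which rose less in the resistant line, and positive for PTGES2 and PTGES3, which fell in the sensitive line. PLA2G4A was the gene that did not pass. For the genes given without a test, the difference was -0.51 for PTGES and 2.66 for MGLL.

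Per length, the genes ranked differently in the 2 lines. In sensitive cells PTGIS stood first, at 573 ± 23.7 RPKM in GNE-7883 and 218 ± 16.4 RPKM in DMSO (SD, n = 3). In GNE-7883 it was followed by PTGES (153 ± 4.32), PTGES3 (117 ± 3.01), PTGES2 (10.9 ± 0.426) and MGLL (3.47 ± 0.306 RPKM), and in DMSO by PTGES3 (172 ± 12.4), PTGES (42.1 ± 2.64), MGLL (34.4 ± 0.764) and PTGES2 (16.2 ± 2.55 RPKM). PTGES3 stood first in resistant cells, at 166 ± 9.78 RPKM in GNE-7883 and 174 ± 3.41 RPKM in DMSO. It was followed in GNE-7883 by PTGIS (106 ± 3.90), MGLL (53.8 ± 3.70), PTGES (29.3 ± 0.714) and PTGES2 (17.5 ± 2.01 RPKM), and in DMSO by MGLL (84.2 ± 2.28), PTGIS (51.6 ± 1.97), PTGES2 (17.3 ± 1.94) and PTGES (11.4 ± 0.937 RPKM). In every group the last 4 places, from higher to lower, were PTGS1, PLA2G4A, PTGS2 and HPGD, with PTGS1 at most 2.85 RPKM. Neighbours in the order had overlapping libraries only in resistant cells in DMSO, for PTGS1 with PLA2G4A and for PLA2G4A with PTGS2.

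**Figure D3:**
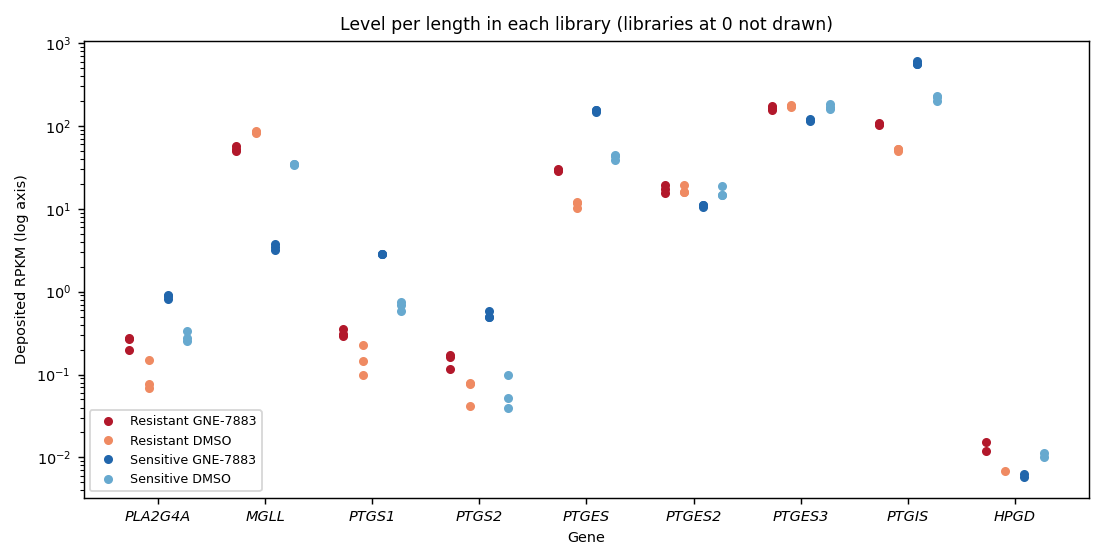
Deposited RPKM of each gene on a log axis, with 1 point per library in the colour of its group, libraries at 0 not being drawn. PTGIS in sensitive cells in GNE-7883 lies highest, with a mean of 573 RPKM, and HPGD lies lowest, with 12 counts in all.

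Ratios between the synthases are given as a description, since PTGES was chosen by its change in GNE-7883. PTGIS exceeded PTGES in RPKM by 3.74 ± 0.26 times in sensitive cells in GNE-7883 and 5.20 ± 0.61 times in DMSO, and by 3.61 ± 0.050 times in resistant cells in GNE-7883 and 4.54 ± 0.21 times in DMSO. In each line the ratio was lower in every GNE-7883 library than in every DMSO library, and the lines overlapped within each treatment. PTGES relative to PTGES2 was 14.1 ± 0.86 in sensitive cells in GNE-7883 and 2.63 ± 0.31 in DMSO. In resistant cells PTGES relative to PTGES2 was 1.69 ± 0.23 in GNE-7883 and 0.663 ± 0.056 in DMSO, so that PTGES2 was the more abundant in resistant cells in DMSO and PTGES in the other 3 groups.

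Around these genes, 56 further genes of the eicosanoid and endocannabinoid pathways were examined in 6 lists, of which 43 passed the filter. Genes named from the lists, apart from PTGER4 and CNR1, were picked for the largest called fold changes in the comparison given. Their fold changes, standard errors and adjusted p do not allow for that choice and serve as a description. In sensitive cells, GNE-7883 raised 14 of the 43 and lowered 4 (41.9%, against 58.1% of all genes), with a median log2 fold change of 0.19 against 0.02 over all genes. Among the phospholipid enzymes 4 of 7 rose and 0 fell, where 29.8% of all genes rose and 28.4% fell. The 0 held at an unadjusted p under 0.05 and by DESeq2. PLA2G4C, a calcium-independent relative of PLA2G4A, averaged 24.2 ± 0.64 CPM in sensitive cells in GNE-7883 and 6.03 ± 0.21 CPM in DMSO, a log2 fold change of 2.00 ± 0.078 (adjusted p = 7.91e-12). Among the other terminal synthases 3 of 6 rose and 2 fell. PTGDS, a prostaglandin D2 synthase, averaged 2.18 ± 0.16 CPM in GNE-7883 and 0.334 ± 0.14 CPM in DMSO (log2 fold change 2.69 ± 0.27, adjusted p = 3.35e-06). AKR1B1, an aldose reductase with prostaglandin F synthase activity, averaged 303 ± 9.4 CPM in GNE-7883 and 125 ± 6.5 CPM in DMSO (1.28 ± 0.060). AKR1C3 also rose (1.76 ± 0.17), with the doubt that its near-identical family members may share its reads, and PRXL2B (-0.67 ± 0.11) and CBR1 (-0.35 ± 0.075) fell.

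Of 8 endocannabinoid and glyceride enzymes, which act on the same lipids as MGLL, 3 rose and 1 fell in sensitive cells. That is 50% called, against 58.1% of all genes (29.8% rose and 28.4% fell). The one that fell was DAGLB, a diacylglycerol lipase that makes 2-arachidonoylglycerol, at 128 ± 4.2 CPM in GNE-7883 and 344 ± 26 CPM in DMSO (-1.42 ± 0.063, adjusted p = 3.55e-11). SLCO2A1, which carries prostaglandins into cells, fell by 0.94 ± 0.099 (adjusted p = 6.91e-07), as 1 of the 2 genes that passed among 5 of breakdown and transport, fewer than the 58.1% of all genes. In the lipoxygenase and leukotriene branch 3 of 10 rose, close to the 29.8% of all genes, and 0 fell, against 28.4%, the 0 being the same at an unadjusted p under 0.05 and by DESeq2. Among those that rose was EPHX2 (1.36 ± 0.098), a soluble epoxide hydrolase. It was put in this list but is neither a lipoxygenase nor an enzyme of leukotriene synthesis. Of the prostanoid and endocannabinoid receptors, 0 of 7 passed in sensitive cells, against 58.1% of all genes, with 2 upward and 0 downward at an unadjusted p under 0.05 and 0 by DESeq2. Some of these receptors, such as PTGER4 and CNR1, were counted by few reads, which limits what could pass.

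In resistant cells, GNE-7883 raised 6 of the 43 and lowered 0 (14%, against 9.22% of all genes), with a median of 0.06 against 0.00 over all genes. At an unadjusted p under 0.05, 15 were higher and 0 lower, and DESeq2 called 7 higher and 0 lower. Those that rose included EPHX2 (0.56 ± 0.099, adjusted p = 0.002), the secreted phospholipase PLA2G12A (0.34 ± 0.061, adjusted p = 0.00211) and AKR1B1 (0.31 ± 0.060, adjusted p = 0.00326). ABHD6, another hydrolase of 2-arachidonoylglycerol, rose by 0.41 ± 0.11 (adjusted p = 0.0256) and the diacylglycerol lipase DAGLA by 0.37 ± 0.091 (adjusted p = 0.0167). The calls of ABHD6 and DAGLA were lost when single libraries of the resistant groups were left out. No receptor passed, 0 of 7, also at an unadjusted p under 0.05 and by DESeq2.

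Between the lines in DMSO, 8 of the 43 rose and 17 fell in resistant cells (58.1%, against 48.7% of all genes, of which 24.2% rose and 24.4% fell). The falls included 6 of the 8 endocannabinoid and glyceride enzymes, DAGLA (-1.02 ± 0.090) and DAGLB (-0.74 ± 0.062) among them, and 5 of the 7 phospholipid enzymes, such as PLAAT3 (-1.59 ± 0.064) and PLA2G12A (-1.25 ± 0.061). Of 7 receptors 3 rose, 1 fell (the cannabinoid receptor CNR1, with 5 counts in resistant cells and 29 in sensitive cells) and 3 did not pass. The prostaglandin F receptor PTGFR averaged 11.0 ± 1.2 CPM in resistant cells and 4.06 ± 0.84 CPM in sensitive cells (1.43 ± 0.13, adjusted p = 2.17e-07). The prostacyclin receptor PTGIR averaged 5.30 ± 0.55 CPM in resistant cells and 3.33 ± 0.46 CPM in sensitive cells (0.67 ± 0.13, adjusted p = 0.000371). The prostaglandin E2 receptor PTGER4 also rose, at 0.876 ± 0.013 CPM in resistant cells and 0.355 ± 0.11 CPM in sensitive cells (1.28, adjusted p = 0.000926). PTGER4 lay under 1 CPM in both lines and, like CNR1, was named after its values were seen. In GNE-7883, 10 of the 43 rose and 22 fell (74.4%, against 61.9% of all genes). PTGDS had 0 counts in the 6 resistant libraries and was at least 92.8-fold lower in resistant than in sensitive cells in GNE-7883, taking 3 counts over the group as the limit. In the difference in response between the lines 4 were called upward, led by DAGLB (1.40 ± 0.088) and SLCO2A1 (1.17 ± 0.13), and 10 downward, led by PLA2G4C (-1.72 ± 0.12), of the 43 (32.6%, against 35.7% of all genes).

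**Figure D4:**
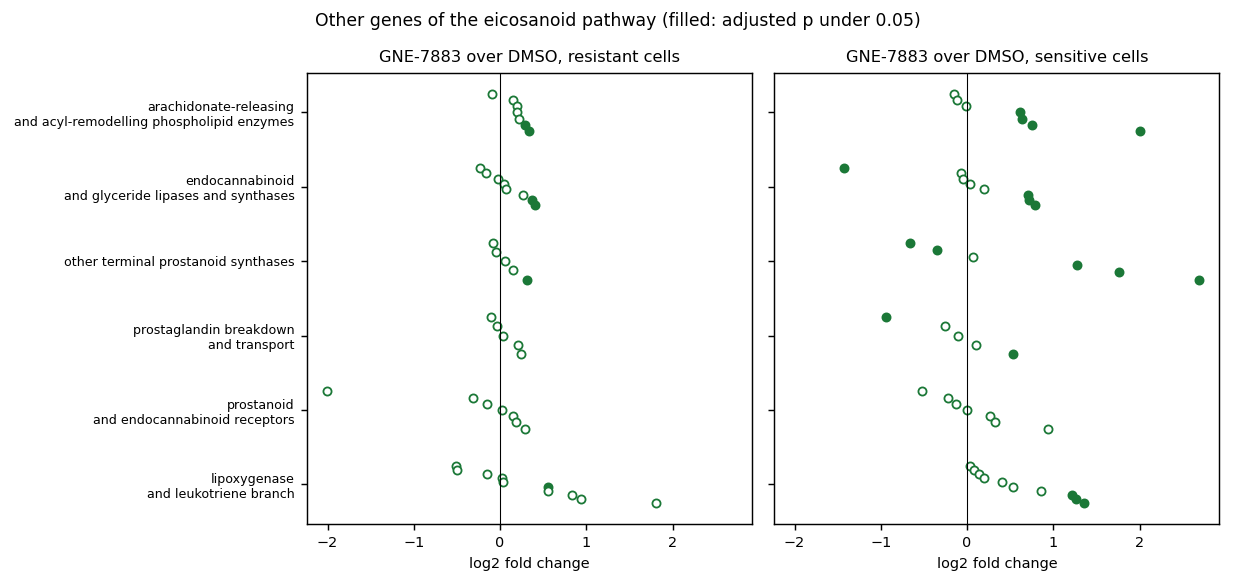
Log2 fold changes in GNE-7883 against DMSO of the further pathway genes by list, in resistant cells on the left and sensitive cells on the right, with filled points for those that passed an adjusted p of 0.05 and PTGDS, which has 0 counts in resistant cells, left out on that side. In sensitive cells 14 of 43 rose and 4 fell (41.9%, against 58.1% of all genes). In resistant cells 6 rose and 0 fell (14%, against 9.22% of all genes). In either line 0 of 7 receptors passed, some of them counted by few reads.

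For the 6 genes whose group means spanned at least 1 on the log2 scale, the genes most like them over the 12 libraries were ranked by the root mean square difference of centred log2(CPM + 1), among those reaching a mean of 5 CPM in some group (11418, or 11419 for PTGS2 and PLA2G4A). This is a description with no test, and for genes of low level the added constant shrinks the span and so the differences. For PTGIS the nearest were KANK4, CARNS1 and CA11, and for PTGES they were ZSCAN31, CA11 and SLC7A8. CRLS1, KDR and ZSCAN31 were nearest to PTGS1. KDR, a receptor of vascular endothelial growth factor, averaged 31.6 ± 1.68 CPM in resistant cells in GNE-7883, 21.4 ± 0.644 CPM in resistant cells in DMSO, 185 ± 8.19 CPM in sensitive cells in GNE-7883 and 54.5 ± 7.23 CPM in sensitive cells in DMSO. PTGS2 lay nearest to CHST11, RNF24 and CCNG2, and PLA2G4A to GATA6-AS1, PLA2R1 and HS2ST1. MGLL lay nearest to IGFBP5 at 0.262, THBS1 at 0.313 and MARCHF4 at 0.345. IGFBP5, which binds insulin-like growth factors, averaged 335 ± 19.2 CPM in resistant cells in GNE-7883, 418 ± 9.83 CPM in resistant cells in DMSO, 24.5 ± 1.02 CPM in sensitive cells in GNE-7883 and 157 ± 16.3 CPM in sensitive cells in DMSO.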

How the data were processed

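The authors deposited a table of raw counts, whole reads per gene with no scaling, and RPKM values for the same 12 libraries. The kit named in the labels' protocols does not mark strand, and reads were single-end with 50 bases. The submitters' processing notes name GSNAP, GRCh38.p10 and limma without a role, and name no counting tool or annotation release. Counts and RPKM were checked against each other over 12122 genes and differed by a relative deviation of at most 9.2e-09 after a factor per gene and per library. Symbols were found for 57532 of 58302 identifiers, and coordinates came from GENCODE release 29. None of the 9 genes shares exon bases with another gene there. Promoters came from RefSeq on GRCh38.p14.

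Counts were tested with edgeR 4.0.16 in R 4.3.3 (filterByExpr by group, TMM, quasi-likelihood, fitted to all 12 libraries with 8 residual degrees of freedom, two-sided, Benjamini-Hochberg over 18035 genes in each of 5 comparisons). A standard error is the fold change divided by the square root of F. Alternatives were RLE scaling, 2 other filters, DESeq2 1.42.0, a replicate block, the compared groups alone, each library left out, and limma 3.58.1 on log2(RPKM + 0.1). Further pathway genes named are, per comparison, the 5 called genes of at least 1 RPKM with the largest log2 fold change each way. PTGER4 and CNR1 were named after their values were seen. The 9 genes and all lists were chosen with earlier results of these data known.

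Totals of 31878934 to 46962645 counts limit genes of few reads, and a count of 0 allows up to 3 counts, for counting error only.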

Additional observations from a re-analysis of the deposited data

Results flagged for a closer look

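For 5 of the 6 genes with a test, against 35.7% of all genes, the response to GNE-7883 differed between the lines by the test of the difference itself (edgeR interaction term, resistant minus sensitive, 3 libraries per group). Of these, PTGS2 had the largest difference, -1.86 on the log2 scale, followed by PTGS1 at -1.0 and PTGIS at -0.36, all 3 having risen in both lines, although the rise of PTGS2 in resistant cells lost its call when any 1 of 3 libraries was left out. PTGES2 at 0.58 and PTGES3 at 0.48 differed in the other direction, where the fall in sensitive cells passed its own test and the change in resistant cells did not. The difference for PTGS1 was lost without resistant DMSO replicate 3, at -0.65 (adjusted p = 0.0617, range over alternatives 0.000297 to 0.0617). Sensitive DMSO replicate 2, which stood apart from its group, lay from -0.22 to 0.24 from the mean of its group on the log2 scale of CPM for each of the 8 genes that passed the filter. That mean includes the library itself, and the 0.24 was for PTGES2. With single libraries left out, the change of PTGES2 in sensitive cells ran from -0.63 to -0.43 and its difference in response from 0.45 to 0.71.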

How the results depend on the processing

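Of 1543 fold changes of single genes recomputed under the alternatives, 1507 kept their direction and their side of the threshold, 25 lost a call, 0 gained one and 11 changed sign, none of them among called values. The sign changes were those of PTGES2 between the lines in DMSO (-0.077 to 0.161 with single libraries left out) and in resistant cells (-0.069 to 0.116), PTGS2 between the lines in DMSO (-0.26 to 0.44, and 0.026 with limma on RPKM), PTGES3 between the lines in DMSO (0.015 with limma on RPKM) and the difference in response of PLA2G4A (-0.51 to 0.17). The cause was not tested. With a filter of 5 CPM in 3 libraries, 4 of the genes were still tested, since those of lower level were dropped. In resistant cells 2 of these 4 were called, in place of 4 of 6. Counts of called genes also dropped in the other comparisons under some alternative with all libraries. The lowest were 4 in place of 6 in sensitive cells and 2 in place of 3 between the lines in DMSO. They were 4 in place of 6 between the lines in GNE-7883 and 4 in place of 5 for the difference in response. Leaving out single libraries moved the count of all genes called in resistant cells over 854 to 3060. Replicate numbers did not pair the libraries in general. The correlation of same-numbered deviations ran from -0.12 to 0.18 and was over 0.1 in 1 of 18 pairs. Of 12 libraries, 4 correlated best with their own number. The 0.18 was for sensitive DMSO replicate 2, which stood apart from its group, with resistant DMSO replicate 2. PTGES2 was highest of its group in each of these libraries, at 47.2 and 46.3 CPM. Whether these libraries share an effect was not tested. With the replicate number as a block, 92 of 93 results kept their label, 1372 genes and 4 of the 6 were called in resistant cells, and the call of PLA2G6 in the difference in response was lost (-0.53, adjusted p = 0.0587, range over its alternatives to 0.148), as under 12 other alternatives. The low counts of PTGS2, PLA2G4A and HPGD, and of PTGS1 in resistant cells, limit what can be said of them.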
